A study of Caenorhabditis elegans with 16 samples.

Results

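The proton-coupled myo-inositol transporter genes hmit-1.1, hmit-1.2 and hmit-1.3 and the glycerol-3-phosphate dehydrogenase genes gpdh-1 and gpdh-2 were followed across embryos mutant for either or both of the decapping enhancer genes edc-3 and edc-4. They were picked by symbol, 5 genes of 46726 in the count table, and all 5 passed the filter on low counts that left 16880 genes for testing. RNA came from mixed-stage Caenorhabditis elegans embryos of 4 genotypes grown side by side without treatment at 16 °C, with 4 biological replicates each, numbered 2 to 5. These were the wild type N2 (WT), strain RB1311 with edc-3(ok1427), strain FD135 with edc-4(qe49), and strain FD146 with edc-3(ok1427); edc-4(qe49), called the double mutant here. Each genotype was 1 strain, so an allele and any other difference between the strains cannot be told apart. The series' design text gives FD135 for the double mutant as well, and libraries were grouped by the genotype in their own labels.

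Worms that meet salty surroundings lose water, and they respond by building up small organic solutes, above all glycerol. GPDH enzymes make glycerol-3-phosphate from a glycolytic intermediate, the step that limits glycerol synthesis. The gpdh-1 gene is strongly induced by hypertonic stress in intestine and epidermis, whereas gpdh-2 is expressed without stress. HMIT proteins carry myo-inositol, another compatible solute and the precursor of inositol phosphate signals, into cells together with protons, and hmit-1.1 and hmit-1.2 have been linked to osmotic tolerance. EDC-3 and EDC-4 promote removal of the mRNA cap ahead of decay.

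Positions are from the WBcel235 annotation. The genes hmit-1.1 (WBGene00013073, chromosome V, 18516789 to 18523875) and hmit-1.2 (WBGene00013074, chromosome V, 18524760 to 18529156) lie in tandem on the plus strand, 884 bases apart. The third transporter gene, hmit-1.3 (WBGene00010811, chromosome III, 3510924 to 3519607), and gpdh-2 (WBGene00010778, chromosome III, 9854074 to 9859183) are on the minus strand. The gpdh-1 gene (WBGene00009824, chromosome I, 14075837 to 14078211, plus strand) is on the chromosome that also carries edc-3 and edc-4. All 5 are protein-coding, and counts are over whole genes. Reads shared between the related hmit genes were not examined.

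Libraries held 34089540 to 52893968 counts. The edc-4 transcript stood at 139 to 198 CPM (a count scaled to library size, with TMM factors) in the 8 libraries without its allele and at 20.4 to 35.3 CPM in the 8 with it. The edc-3 transcript was at 57.4 to 69.3 CPM in edc-3 and 65.0 to 82.5 CPM in the double mutant, against 70.8 to 97.8 CPM in WT and 78.6 to 116 CPM in edc-4. A whole-gene count does not check an internal deletion. Libraries differed in a marker score, the mean log2 CPM of 16 early zygotic genes minus that of 16 body wall muscle genes. It is higher where markers of early embryos outweigh those of late ones. The score averaged -5.79 ± 0.49 in WT and -5.35 ± 0.48 in edc-3, against -5.27 ± 0.90 with edc-4 mutated and -4.95 ± 0.78 with both alleles (SD, n = 4 each). The edc-4 and double libraries numbered 4 had the highest scores, -4.07 and -3.80. The edc-3 library numbered 4 came next at -4.71, and the WT library numbered 4 had the lowest score, -6.33. Each of the intestine, epidermis, and glia and excretory canal marker lists was detected in every group. Summed levels for 9 intestinal markers were 611 to 893 CPM in WT, against 455 to 717 CPM with both alleles, and 463 to 641 and 401 to 501 CPM for 11 glial and canal markers. For 10 epidermal markers they were 1002 to 1277 and 864 to 1263 CPM. In edc-4 the intestinal, glial and canal, and epidermal sums were 471 to 933, 388 to 605 and 827 to 1268 CPM. In edc-3 they were 631 to 766, 438 to 541 and 1003 to 1204 CPM. The WT range overlapped that of each mutant in all 3 lists. Of 12 adult yolk and sperm markers 2 passed the filter, with sums of 0.770 to 2.56 CPM over all libraries, and msp-19 had no count. In whole embryos, fewer cells of a type and less RNA per cell cannot be told apart.

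In WT the levels per kilobase of exon put gpdh-2 far above the others, at 87.0 ± 2.60 CPM per kb. It was followed by hmit-1.3 at 6.67 ± 1.25, gpdh-1 at 6.08 ± 1.3, hmit-1.1 at 4.18 ± 0.87 and hmit-1.2 at 0.246 ± 0.053 CPM per kb (SD, n = 4 each). The levels of hmit-1.3 and gpdh-1 differed by less than their spread. In the double mutant hmit-1.1 was at 1.5 ± 0.40 and gpdh-1 at 3.91 ± 0.82 CPM per kb, with the same order of the 5 means.

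The transporter hmit-1.1 was lower in embryos with the edc-4 allele, and lowest on average with both alleles. In WT replicates 2 to 5 its level was 9.06, 7.24, 11.2 and 7.48 CPM. In edc-3 it was 6.98, 6.74, 6.40 and 9.98 CPM, and in edc-4 6.80, 5.79, 3.38 and 2.49 CPM. In the double mutant it was 3.17, 4.21, 2.16 and 2.99 CPM. All double-mutant libraries thus lay below all WT and all edc-3 libraries, all edc-4 libraries lay below WT, and edc-3 overlapped both WT and edc-4. In raw counts the gene ranged from 318 to 552 in WT, and in the double mutant from 78 to 161. Means were 8.74 ± 1.82 in WT and 7.53 ± 1.66 in edc-3, against 4.61 ± 2.02 with edc-4 mutated and 3.13 ± 0.84 CPM with both alleles (SD, n = 4 each). Of these neighbours in order, WT and edc-3, edc-3 and edc-4, and edc-4 and the double mutant each overlapped.

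**Figure D1:**
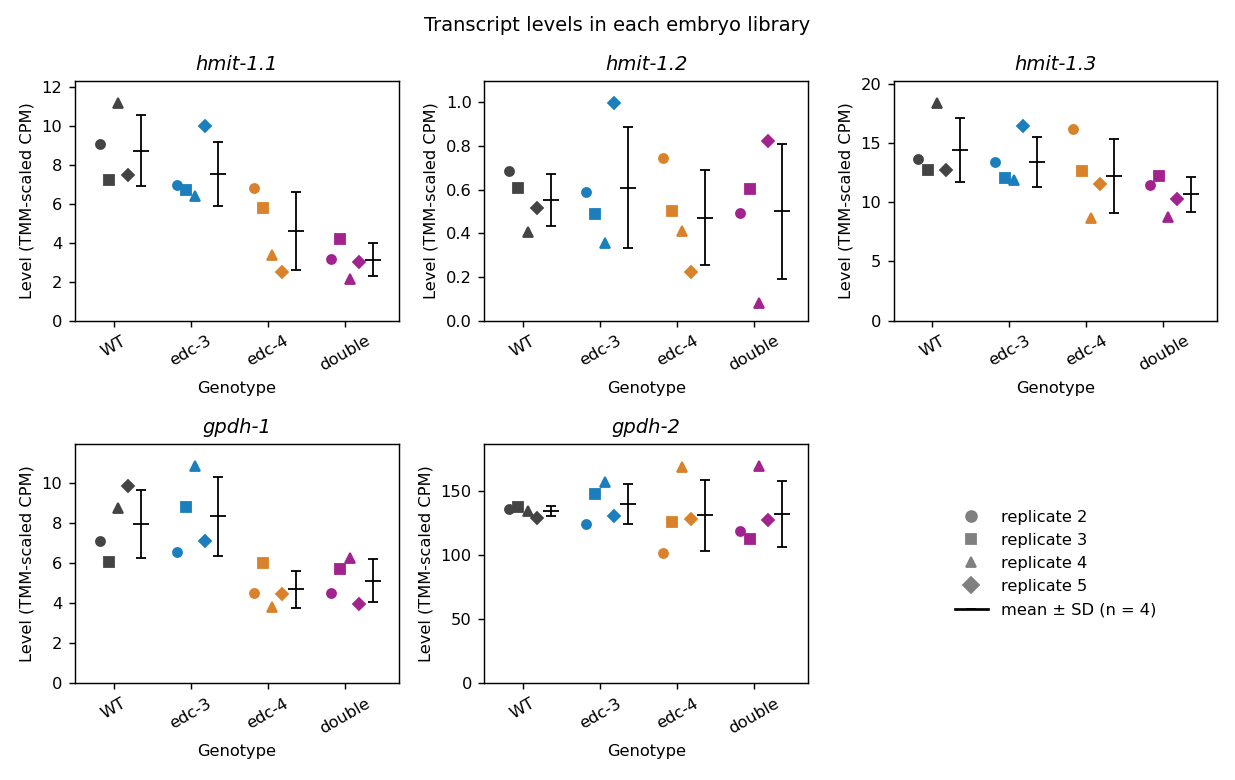
Level of each of the 5 transcripts (vertical axis, TMM-scaled CPM from 0) in the 16 libraries, by genotype. Symbols mark the replicate number and bars the mean ± SD (n = 4); hmit-1.1 runs from 7.24 to 11.2 CPM in WT, and with both alleles it runs from 2.16 to 4.21 CPM.

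The genes were chosen with the fall of hmit-1.1 in the double mutant against WT already known, so values of that comparison are given as a description. There hmit-1.1 had a log2 fold change of -1.48 (SE 0.28), which is 35.8% of the WT mean, and it was the 1 of the 5 genes past the threshold, where 0.207% of tested genes passed in either direction. The others had log2 fold changes of -0.64 (gpdh-1, SE 0.21), -0.43 (hmit-1.3, SE 0.18), -0.12 (hmit-1.2, SE 0.46) and -0.022 (gpdh-2, SE 0.14). The groups did not overlap for hmit-1.1 and hmit-1.3, both lower, which 3.95% of tested genes did.

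The effect of the edc-4 allele alone was asked by comparing edc-4 with WT. The gpdh-1 level was 40.8% lower (log2 -0.76, SE 0.21) and that of hmit-1.1 47.2% lower (log2 -0.92, SE 0.27), each with all 4 edc-4 libraries below all 4 WT libraries. Such a lower, non-overlapping pair of groups was found for 2 of the 5 genes and for 1.25% of tested genes. Neither passed over all genes in the edgeR quasi-likelihood test (adjusted p = 0.567 and 0.786), where 0.142% did. Unadjusted p was under 0.05 for these 2 genes, as for 4.98% of all, and DESeq2 called 0 of the 5 (0.249% of genes). The comparison shares its WT libraries with the one by which hmit-1.1 was known. Its values for hmit-1.1 are therefore not independent of the choice of the gene. The log2 differences were -0.23 for hmit-1.3 (SE 0.18), -0.23 for hmit-1.2 (SE 0.46) and -0.035 for gpdh-2 (SE 0.14), with none past the threshold.

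For the stress-inducible enzyme gpdh-1 the separation from WT was narrow. It stood at 7.13, 6.04, 8.76 and 9.88 CPM in WT replicates 2 to 5 and at 6.55, 8.82, 10.9 and 7.09 CPM in edc-3. With edc-4 mutated it was at 4.51, 6.01, 3.82 and 4.45 CPM, and in the double mutant at 4.51, 5.73, 6.28 and 3.95 CPM. The highest edc-4 library lay just under the lowest WT library, double replicate 4 lay above WT replicate 3, and all double libraries lay below all edc-3 libraries. Means were 7.95 ± 1.70 in WT and 8.33 ± 1.95 in edc-3, against 4.70 ± 0.93 with edc-4 mutated and 5.12 ± 1.07 CPM with both alleles (SD, n = 4 each). WT and edc-3 overlapped, as did edc-4 and the double mutant.

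The edc-3 allele alone was asked about by setting edc-3 against WT, which gave no detected difference in the 5 genes. Log2 differences ran from -0.21 for hmit-1.1 (SE 0.27) to 0.17 for hmit-1.2 (SE 0.45), and all groups overlapped (0.977% of tested genes were lower without overlap). By the edgeR quasi-likelihood test 0 of the 5 passed (0.142% of tested genes did), 0 had an unadjusted p under 0.05 (2.65% did), and DESeq2 called 0 (0.231% of genes). Within 2 SE the data allow a log2 difference of hmit-1.1 from -0.76 to 0.33 and of gpdh-1 from -0.35 to 0.48.

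The allele of edc-4 was also examined on top of edc-3, with the double mutant set against edc-3. Here hmit-1.1 had a log2 difference of -1.27 (SE 0.28) and gpdh-1 of -0.70 (SE 0.21), with all 4 double libraries below all 4 edc-3 libraries for both, as for 1.87% of tested genes in that direction. Neither passed by the edgeR quasi-likelihood test (adjusted p = 0.283 and 0.900), where 0.0355% of tested genes did. The comparison shares its double-mutant libraries with the one by which hmit-1.1 was known. For hmit-1.1 the adjusted p was 0.0051 by DESeq2 (0.136% of genes called), 0.0167 without the filter on low counts and 0.0177 with the marker score as a covariate (0.237% called). With no other group in the fit it was 0.0917, and it was 0.320 to 0.876 under the other alternatives. The gpdh-2 difference was -0.082 (SE 0.14), that of hmit-1.3 -0.33 (SE 0.18) and that of hmit-1.2 -0.29 (SE 0.46).

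Adding the edc-3 allele to edc-4 gave a log2 difference of -0.56 (SE 0.28) for hmit-1.1 and 0.12 (SE 0.21) for gpdh-1. With 0 of the 5 genes past the threshold (0.0296% of tested genes were), 0 at an unadjusted p under 0.05 (2.81% were) and 0 by DESeq2 (0.0711%), no difference was detected. Values within 2 SE run from -1.12 to 0.0032 for hmit-1.1 and from -0.30 to 0.54 for gpdh-1. The interaction of both alleles, which asks whether the double mutant departs from the sum of the single effects in log2, was -0.34 (SE 0.39) for hmit-1.1 and 0.055 (SE 0.29) for gpdh-1. None of the 5 genes passed that test in edgeR (0.0355% of tested genes did), 0 had an unadjusted p under 0.05 (1.62% did), and DESeq2 called 0 (0.101% of genes). At 2 SE the interaction of hmit-1.1 spans -1.12 to 0.43.

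**Figure D2:**
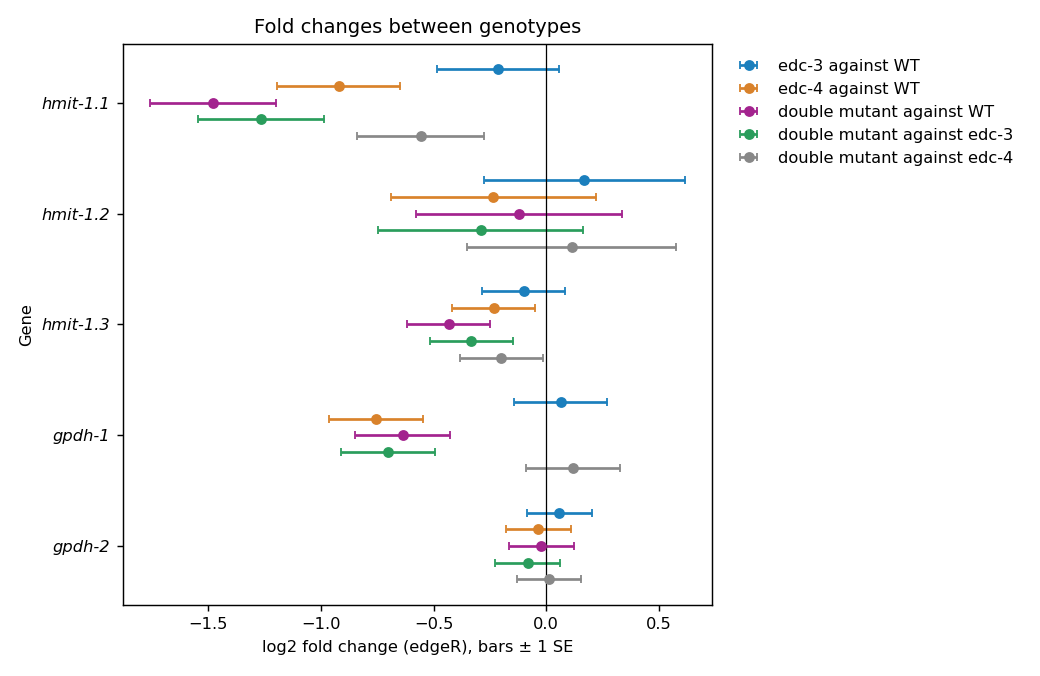
Log2 fold change (horizontal axis, edgeR, bars ± 1 SE) of each gene in 5 comparisons, with 4 libraries per genotype and an estimate of spread shared by all 16. For hmit-1.1 and gpdh-1 the 3 comparisons that add the edc-4 allele lie left of 0 (hmit-1.1 at -0.92, -1.48 and -1.27), while gpdh-2 lies between -0.082 and 0.059 in all 5.

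Averaged over both edc-3 backgrounds, a contrast added after the values were seen, 8 libraries with the edc-4 allele were set against 8 without it. For gpdh-1 they ranged from 3.82 to 6.28 CPM (median 4.51) and from 6.04 to 10.9 CPM (median 7.95), so that only double replicate 4 and WT replicate 3 crossed. The log2 difference was -0.73 (SE 0.15), which missed the threshold (edgeR quasi-likelihood test, adjusted p = 0.0537, where 0.195% of tested genes passed). It passed without TMM scaling (adjusted p = 0.0404), by DESeq2 (0.0012, with 0.575% of genes called), without the filter (0.0098) and with the marker score in the fit (0.0183, with 0.723% called). The adjusted p was 0.030 to 0.160 with 1 library left out and 0.167 without the libraries numbered 4. For hmit-1.1 the ranges were 2.16 to 6.80 CPM (median 3.28) and 6.40 to 11.2 CPM (median 7.36), with edc-4 replicate 2 alone above the lowest library without the allele. Its log2 difference of -1.09 (SE 0.20) was past the threshold, but the contrast holds all libraries of the one known beforehand, and it is given as a description. The other 3 genes had differences of -0.28 (hmit-1.3, SE 0.13), -0.26 (hmit-1.2, SE 0.32) and -0.058 (gpdh-2, SE 0.10). The edc-3 allele averaged in the same way gave -0.39 (SE 0.19) for hmit-1.1 and 0.092 (SE 0.15) for gpdh-1, with 0 of the 5 genes past the threshold (0.148% of tested genes were), 0 at an unadjusted p under 0.05 (4.31% were) and 0 by DESeq2 (0.338%).

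For the constitutive enzyme gpdh-2 and the related transporters no comparison passed the threshold. In WT replicates 2 to 5 gpdh-2 was at 136.02, 138, 134 and 128 CPM, and in edc-3 at 124, 148, 157 and 130 CPM. With edc-4 mutated it was at 102, 126, 168 and 128 CPM, and in the double mutant at 119, 112, 170 and 127 CPM. The edc-4 and double libraries numbered 4 were the highest of all, and every pair of groups overlapped. The transporter gene hmit-1.3 was at 13.7, 12.7, 18.4 and 12.7 CPM in WT and at 13.4, 12.01, 11.9 and 16.4 CPM in edc-3. It was at 16.2, 12.6, 8.63 and 11.5 CPM in edc-4 and at 11.4, 12.2, 8.76 and 10.3 CPM in the double mutant. WT replicate 4 was its highest library and edc-4 replicate 4 its lowest. The tandem neighbour hmit-1.2 was near the limit of measurement, with 3 to 51 counts per library and 0.083 to 0.998 CPM. Its mean was 0.554 ± 0.12 in WT and 0.609 ± 0.277 in edc-3, against 0.471 ± 0.217 with edc-4 mutated and 0.501 ± 0.310 CPM with both alleles (SD, n = 4 each). At this depth the 2-SE range of hmit-1.2 in edc-4 against WT reaches from -1.14 to 0.68 in log2, which includes the -0.92 of hmit-1.1. In the double mutant against WT the hmit-1.2 range reaches from -1.04 to 0.79 and for the averaged edc-4 allele from -0.91 to 0.38. The hmit-1.1 estimates, -1.48 and -1.09, lie outside these, but its own 2-SE ranges, -2.04 to -0.92 and -1.49 to -0.70, overlap them. The fall of hmit-1.1 was known beforehand in the first contrast, whose libraries the second contains. A difference between the 2 genes was not tested.

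On average over the genotypes, all 3 transporter genes were lower, and gpdh-2 higher, in libraries with a higher marker score. Within WT hmit-1.2 did not follow this, with 0.406 CPM at the lowest score (-6.33) and 0.609 CPM at the highest (-5.14). In a fit with genotype means and the score, added after the values were seen, the log2 slope per unit of score was -0.49 for hmit-1.1 (SE 0.11, edgeR adjusted p = 0.0011) and -0.35 for hmit-1.3 (SE 0.062, adjusted p = 0.000136). It was -0.70 for hmit-1.2 (SE 0.24, adjusted p = 0.0191) and 0.28 for gpdh-2 (SE 0.043, adjusted p = 2.44e-05), and gpdh-1 had 0.041 (SE 0.12, adjusted p = 0.784). These 4 of 5 genes compare with 55.9% of all tested genes called along the score, so such a slope is common in these libraries. Without the libraries numbered 4 the slopes of hmit-1.1, hmit-1.2, hmit-1.3 and gpdh-2 were -0.86, -1.11, -0.36 and 0.22, and only that of hmit-1.1 passed (adjusted p = 0.0379), where 14.6% of genes did. The slope of hmit-1.2 lost its call without edc-4 replicate 2 and without double replicate 4, of 16 fits that each left out 1 library, with slopes from -1.04 to -0.45 over all of them.

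Mean scores were higher in the mutants than in WT, but the groups overlapped. Scores ran from -6.33 to -5.14 in WT and from -5.78 to -4.71 in edc-3. Apart from the library numbered 4 (-4.07), edc-4 libraries had -6.17, -5.68 and -5.18, within the WT range. Double libraries apart from number 4 (-3.80) had -5.10, -5.40 and -5.48. A difference in score between genotypes was not tested. With the score as a covariate hmit-1.1 had a log2 difference of -1.08 (SE 0.21) in the double mutant against WT and -0.72 (SE 0.19) in edc-4, and 0.0025 in edc-3. For gpdh-1 the same fit gave -0.68, -0.77 and 0.040. Without the libraries numbered 4 hmit-1.1 had -1.2 in the double mutant against WT and -0.65 in edc-4, and it was not past the threshold in either.

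**Figure D3:**
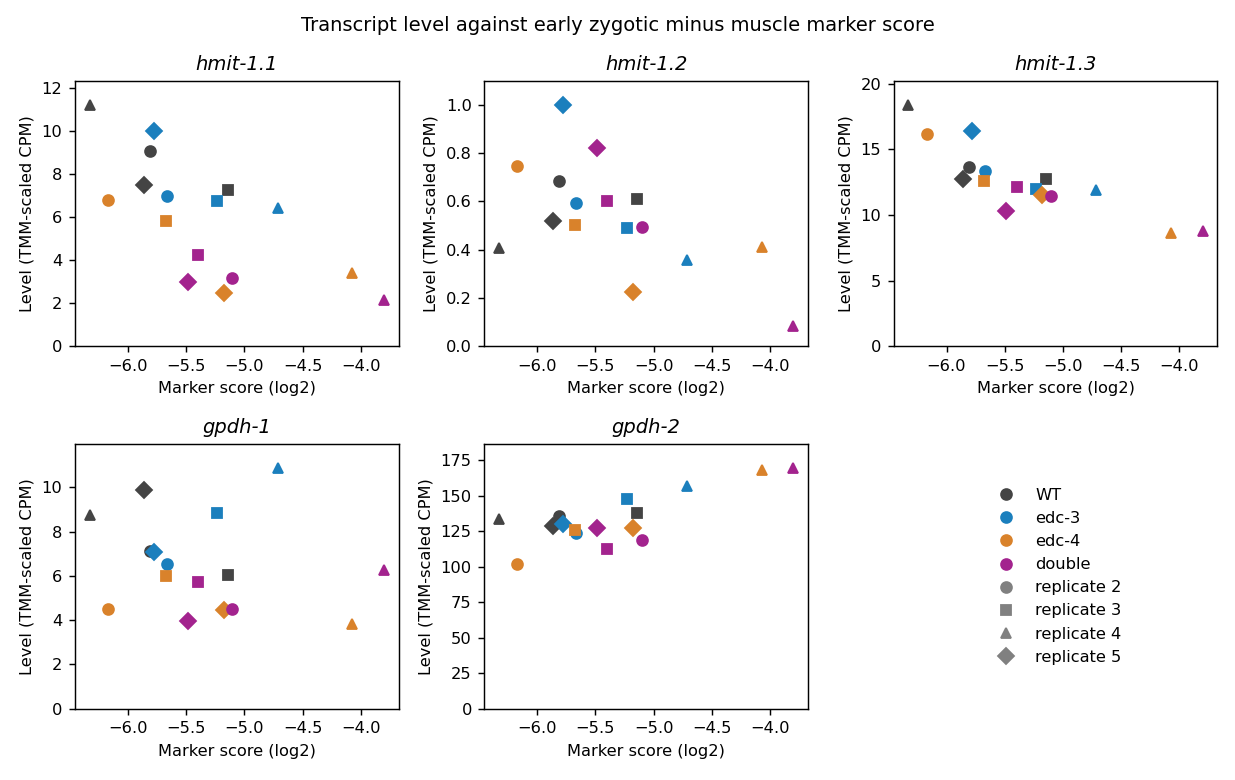
Level of each transcript (vertical axis, TMM-scaled CPM from 0) against the marker score of its library (horizontal axis, log2, higher toward early zygotic markers), with genotype by colour and replicate number by symbol. Levels of hmit-1.1 lie lower and those of gpdh-2 higher toward the right, and the edc-4 and double libraries numbered 4, at scores of -4.07 and -3.80, lie at 3.38 and 2.16 CPM of hmit-1.1.

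Ratios of 2 related transcripts in the same library do not depend on scaling between libraries. They were added after the values were seen. The ratio of hmit-1.1 to hmit-1.3, per kilobase, was 0.683, 0.587, 0.628 and 0.606 in WT replicates 2 to 5 and 0.539, 0.579, 0.556 and 0.628 in edc-3. It was 0.433, 0.474, 0.404 and 0.223 in edc-4 and 0.286, 0.357, 0.254 and 0.300 in the double mutant. The highest value with the edc-4 allele (0.474) was under the lowest without it (0.539). The ratio in edc-4 was 0.590 times that in WT, and in the double mutant 0.517 times that in edc-3. Each gave the smallest p that 4 against 4 libraries allow in an exact two-sided permutation test (p = 0.0286, and 0.0762 after adjustment over the 8 tests made). The first shares its WT libraries, and the second its double-mutant libraries, with the comparison by which hmit-1.1 was known, so these p-values are not independent of the choice of the gene. WT and edc-3 differed by 0.919 times (exact p = 0.143), and the double mutant and edc-4 by 0.806 times (exact p = 0.314), with overlap in both. The latter overlap came from edc-4 replicate 5, without which the log2 difference was -0.55 in place of -0.31 (exact p = 0.0571).

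The ratio of gpdh-1 to gpdh-2 was 0.0703 ± 0.0171 in WT and 0.0696 ± 0.0087 in edc-3, against 0.0441 ± 0.0132 with edc-4 mutated and 0.0462 ± 0.0099 with both alleles (SD, n = 4 each). It was 0.658 times as high in the double mutant as in edc-3, without overlap (exact p = 0.0286, adjusted 0.0762). In edc-4 it was 0.617 times that of WT, with WT replicate 3 at 0.0517 below 2 edc-4 libraries (exact p = 0.0857, adjusted 0.171). With 1 library left out, the smallest p that 3 against 4 libraries allow is 0.0571. Groups without overlap must give that p whichever library is left out, so such fits add nothing to the full comparison. This holds for the hmit ratio in edc-4 against WT and in the double mutant against edc-3. It also holds for the gpdh ratio in the double mutant against edc-3. For the gpdh ratio in edc-4 against WT the exact p ran from 0.0571 to 0.171.

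**Figure D4:**
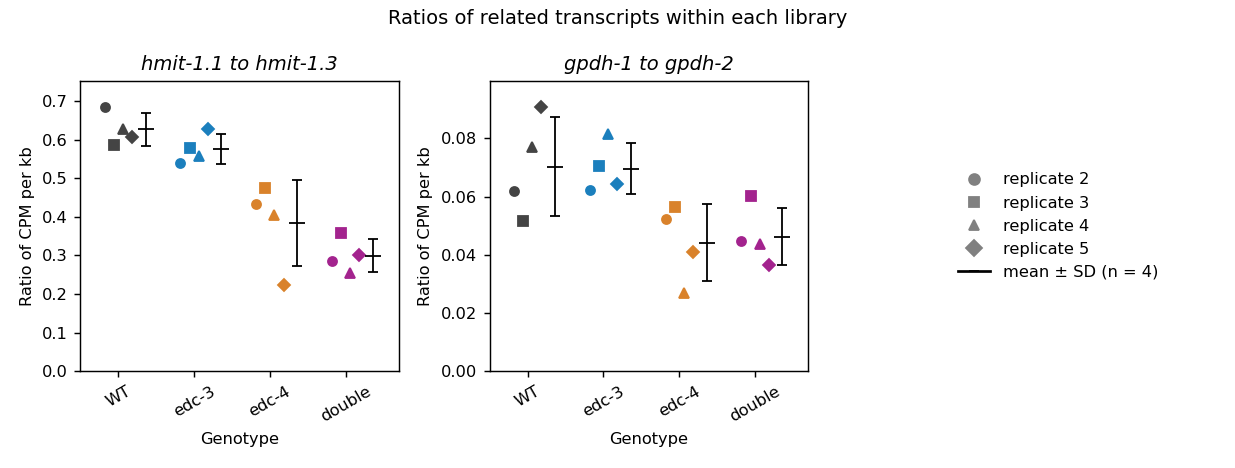
Ratio of CPM per kilobase of exon (vertical axis, from 0) between 2 related transcripts in each library, by genotype, with symbols for the replicate number and bars for mean ± SD (n = 4). The hmit-1.1 to hmit-1.3 ratio is at 0.539 or more in all WT and edc-3 libraries and at 0.474 or less in all edc-4 and double libraries.

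Other genes of solute and water balance did not move with the alleles to a level the test could call. The lists covered glycerol metabolism, inositol metabolism and signalling, regulators of the osmotic response, the annular furrow collagens whose loss turns on gpdh-1, and other osmolytes with water and ion transport. Of 80 names 74 were in the table and 72 were tested, and 0 of the 72 passed in any of the 8 contrasts by edgeR, by DESeq2 or with the marker score in the fit. An unadjusted p under 0.05 was found against WT for 1 of the 72 in edc-4 (4.98% of all tested genes), 5 in the double mutant (11.5%) and 0 in edc-3 (2.65%). It was found for 3 in the double mutant against edc-3 (5.01%) and for 3 against edc-4 (2.81%). For the averaged alleles it was found for 6 with edc-4 (10.7%) and 1 with edc-3 (4.31%), and for the interaction for 0 (1.62%). For the double mutant the median log2 difference was -0.038 for 7 glycerol genes, -0.14 for 13 inositol genes and 0.019 for 16 regulators. It was -0.17 for 6 furrow collagens and -0.089 for 30 other transport and osmolyte genes, against -0.0097 over all tested genes. The same 5 medians in edc-4 were 0.11, -0.037, -0.0066, -0.21 and -0.013, and in edc-3 0.041, -0.042, 0.023, -0.10 and -0.024. The mitochondrial glycerol-3-phosphate dehydrogenase gene gpdh-3, which consumes what the cytosolic enzymes make, stood at 144 CPM in WT and 156 in edc-3, against 136.4 with edc-4 mutated and 159 with both alleles.

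Of the nearest tested genes on either side of the 5, leaving the 5 themselves out, only a pseudogene passed in any contrast. On the lower-coordinate side of hmit-1.1 the potassium channel gene slo-1 had a log2 difference of -0.36 in the double mutant against WT (SE 0.22) and -0.16 in edc-4 (SE 0.22). The gene gadr-6 overlaps the end of gpdh-1 by 73 bases on the other strand, and had 0.061 (SE 0.091) and 0.019 (SE 0.091). The end of hmit-1.3 overlaps mrpl-35, for a mitochondrial ribosomal protein, by 51 bases on the other strand. The strand setting of the counting is not given in the sources used here, so reads in these overlaps may not be told apart. Beyond hmit-1.2 lies the pseudogene Y51A2D.23, which averaged 0.107 CPM in WT and 1.27 in edc-3, against 0.052 with edc-4 mutated and 0.108 with both alleles. It rose in edc-3 against WT (log2 3.54, edgeR adjusted p = 0.0073). It was lower in the double mutant than in edc-3 (log2 -3.52, edgeR adjusted p = 0.0261), and both carry the edc-3 allele. Outside edc-3 its mean levels were near the limit of measurement, below those of hmit-1.2 in the same genotypes. It may have passed the filter on low counts only through edc-3, so both calls are given as a description. The cause of these changes was not tested.

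Genes most alike in log2 CPM over the 16 libraries were sought among 12550 genes of at least 1 CPM on average, as a description. For gpdh-1 they were unc-78, an actin-interacting protein gene (Pearson r = 0.84), edc-4 itself (r = 0.80) and K02F3.12 (r = 0.80). For hmit-1.1 they were F25E2.3 (r = 0.89), Y102E9.5 (r = 0.89) and rabr-2 (r = 0.89). The leading genes were bgnt-1.2, the muscle-arm guidance gene madd-4 and Y97E10AR.1 for hmit-1.3 (r = 0.97 each). For hmit-1.2 they were the betaine transporter gene snf-3 (r = 0.86), the muscle gene unc-22 (r = 0.85) and Y37A1A.4 (r = 0.85). For gpdh-2 they were the nucleoporin gene npp-20 (r = 0.95), the histone deacetylase gene hda-3 (r = 0.94) and F09E5.7 (r = 0.94). These points share the libraries and with them the marker score and the genotypes. The edc-4 transcript averaged 168 CPM in WT and 176 in edc-3, against 31.9 with edc-4 mutated and 26.1 with both alleles. Its r with gpdh-1 therefore includes the difference between genotypes.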

How the data were processed

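Whole-number counts per gene and library were deposited by the authors, who used Trimmomatic, STAR and HTSeq on WBcel235, per the submitters' processing notes, which also name edgeR and limma. The sources used here give no versions, annotation release or strand setting. Of 46726 genes, 46364 were placed by the Ensembl annotation of WBcel235 and 43623 were given a current symbol through their identifier.

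Genes were filtered with filterByExpr (minimum count 10, minimum total 15), leaving 16880. All 16 libraries entered 1 edgeR 4.0.16 quasi-likelihood fit (R 4.3.3, TMM factors, a mean per genotype), with Benjamini-Hochberg adjustment over all tested genes and a threshold of 0.05. The SE is the log2 fold change divided by the root of F. Log2 CPM used a prior count of 2. DESeq2 1.42.0 was an alternative, and ratios were tested on the log2 scale with scipy 1.17.1. The fit was also run on simulated counts with the same spread for all genes and no variation in the marker score. That run does not test the fit under the variation between these libraries. Depth was 34089540 to 52893968 counts per library.

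The 5 genes, the lists and the tests were chosen with earlier results of these data known. Named besides the 5 genes were list members past the threshold, the 3 most alike genes for each, and the nearest tested gene on either side. The gene gpdh-3 was singled out after its values were seen.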

Additional observations from a re-analysis of the deposited data

Results flagged for a closer look

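Within its group, the hmit-1.1 level of edc-3 replicate 5 (9.98 CPM) stood apart from the other 3 libraries, which lay between 6.40 and 6.98 CPM. The hmit-1.3 level of WT replicate 4 (18.4 CPM) stood apart from 12.7 to 13.7 CPM in the other WT libraries. The gap made up 0.837 and 0.830 of the group's range; both exceed Dixon's critical value for 4 samples. Chance flags about 1 in 20 groups, and 2 of 28 groups were flagged.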

How the results depend on the processing

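The number of the 5 genes called in the double mutant against WT was 1, and it was 0 with a replicate block, 0 without the libraries numbered 4 and 0 to 1 with 1 library left out, where hmit-1.1 had -1.65 to -1.34 and kept its call in 3 of 8 fits. In the double mutant against edc-3 it was 0, and 1 by DESeq2, without the filter and with the stage covariate (the marker score). For the averaged edc-4 allele it was 1. It was 2 without TMM scaling, by DESeq2, without the filter and with the covariate, 0 without the libraries numbered 4 and 0 to 2 with 1 library left out. Leaving out WT replicate 4, edc-3 replicate 5, double replicate 2 or double replicate 5 ended the call of hmit-1.1 there. The replicate block ended the call of hmit-1.1 in the double mutant against WT (log2 -1.51) and no other call among the 5 genes. Same-numbered libraries across genotypes had deviations from their group means correlated above 0.1 in 11 of 24 pairs, with r from -0.49 to 0.66. For number 4, r was 0.52 (edc-3 and edc-4), 0.47 (edc-3 and double) and 0.66 (edc-4 and double). Between WT and these it was -0.35, -0.49 and -0.33. Pairs of differing number were not compared, so whether the numbers pair the libraries was not tested. Counts of the 5 genes in the other contrasts were 0 under every alternative run. Over all genes, 35 were called in the double mutant against WT, and 111 by DESeq2, 104 with the covariate and 65 without the filter. In edc-4 against WT these were 24, 42, 48 and 30, with 7 where only these groups were in the fit.

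Signs turned for values that were not called. With the covariate these were, in edc-3 against WT, hmit-1.1 (0.0025), hmit-1.3 (0.054) and gpdh-2 (-0.073). Further, hmit-1.2 turned in edc-4 (0.00062) and the double mutant (0.32) against WT, and gpdh-2 in the double mutant against edc-4 (-0.074) and for the averaged edc-3 allele (-0.073). Without the libraries numbered 4 these were, in edc-3 against WT, hmit-1.3 (0.095), gpdh-1 (-0.042), gpdh-2 (-0.0023) and the gpdh ratio (-0.014). In the double mutant against edc-4 they were gpdh-1 (-0.092), gpdh-2 (-0.00055) and the gpdh ratio (-0.098), and for the interaction hmit-1.2 (0.16), gpdh-1 (-0.050) and gpdh-2 (0.0017). Also there hmit-1.3 in edc-4 (0.054), hmit-1.2 in the double mutant against WT (0.089), gpdh-1 (-0.067) and gpdh-2 (-0.0014) for the averaged edc-3 allele, and the score slope of gpdh-1 (-0.13) turned. The gpdh-2 value turned by DESeq2 in the double mutant against WT (0.0023) and without TMM scaling in the double mutant against edc-4 (-0.028). The cause was not tested.

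With 1 library left out, ranges that crossed 0 were as follows. In edc-3 against WT they were -0.19 to 0.34 for hmit-1.2, -0.21 to 0.041 for hmit-1.3, -0.10 to 0.18 for gpdh-1, -0.016 to 0.096 for gpdh-2 and -0.13 to 0.14 for the gpdh ratio. In edc-4 against WT they were -0.55 to 0.013 for hmit-1.2 and -0.18 to 0.069 for gpdh-2, and in the double mutant against WT -0.48 to 0.22 and -0.17 to 0.054. Against edc-3 the double mutant gave -0.64 to 0.071 for hmit-1.2. Against edc-4 it gave -0.24 to 0.44 for hmit-1.2, -0.0054 to 0.26 for gpdh-1, -0.14 to 0.16 for gpdh-2 and -0.12 to 0.24 for the gpdh ratio. The interaction ran from -0.40 to 0.30 for hmit-1.2, -0.24 to 0.068 for hmit-1.3, -0.073 to 0.22 for gpdh-1 and -0.21 to 0.097 for gpdh-2. The averaged edc-3 allele ran from -0.042 to 0.30 for hmit-1.2 and -0.040 to 0.11 for gpdh-2, and the score slope of gpdh-1 from -0.071 to 0.17. Depth limits hmit-1.2, with 3 to 51 counts.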
